A study of Rattus norvegicus with 4 samples.

Results

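Mitochondrial ribosome and import genes were taken as the array probes whose gene name, without a trailing predicted mark, began with Mrpl, Mrps, Tomm or Timm followed by a digit. The rule gave 77 genes from 93 probes, of 35635 gene names and 41012 probes on the array. The 77 were grouped by name alone. The 37 Mrpl genes were taken as the large mitochondrial ribosomal subunit and the 24 Mrps genes as the small subunit. The 6 Tomm genes were taken as outer membrane, and the 10 Timm genes as inner membrane and the space before it. A name does not always give the place of the protein, as with Mrps36 and Tomm34 below. Family counts and medians hold all genes of a name. The samples were gracilis muscle, a thin muscle of the inner thigh, of male Sprague-Dawley rats. Injured muscle had 4 h of ischemia and then 1, 3, 7 or 14 days of reperfusion, and was labelled with the red dye Cy5. Muscle of sham-operated rats was labelled with the green dye Cy3. Each of 4 arrays set 1 injured sample against 1 sham sample, with no dye swap. No genotype or age is given in the sources used here, nor whether the 4 sham channels hold RNA of the same animals or of different ones.

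Mitochondria carry their own ribosome, which makes only the core membrane subunits of oxidative phosphorylation and whose proteins are all encoded in the nucleus. Those proteins, like nearly all others of the organelle, are made in the cytosol and enter through the translocase of the outer membrane (TOM), then through translocases of the inner membrane (TIM), with small TIM chaperones escorting membrane proteins across the space between. In skeletal muscle these genes are studied with mitochondrial build-up and loss, and muscle fibres are rich in mitochondria.

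With 1 array per day no difference from sham could be tested, and the number of arrays limits the precision of every value. Ratios are log2 of injured over sham after background correction and loess within the array, levels are log2 of each channel after scaling between arrays, and the brightest probe stood for each gene. A gene counted as measured where the scanner software put its injured spot, its sham spot or both well above background. This held for 75, 75, 73 and 74 member genes on days 1, 3, 7 and 14. The genes measured on all 4 days numbered 73, Timm44 was measured on none, and Mrps10, Mrps2 and Tomm40b were measured on some. The same probe printed 10 times varied by an SD of 0.0353 to 0.0723 over the 4 arrays (40 probes), which is spot noise only. The 4 sham channels gave a yardstick for single genes, not for medians over genes: a member's sham level had a median SD of 0.164 across them. One scanning session covered days 1, 3 and 7 and another covered day 14, so the session and day 14 cannot be told apart.

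Most members were below sham on days 1 and 3, by a modest amount, and about as many were above as below on days 7 and 14. The median member ratio was -0.33, -0.31, -0.01 and 0.01 on days 1, 3, 7 and 14, and the median of all genes measured was 0.02, 0.03, 0.04 and 0.05. Injured muscle was below sham for 65 of 75 members on day 1, against 46.2% of all genes measured that day. On day 3 it was below sham for 58 of 75 members (44.9% of all genes), on day 7 for 37 of 73 (44.3%) and on day 14 for 36 of 74 (43.0%).

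**Figure D1:**
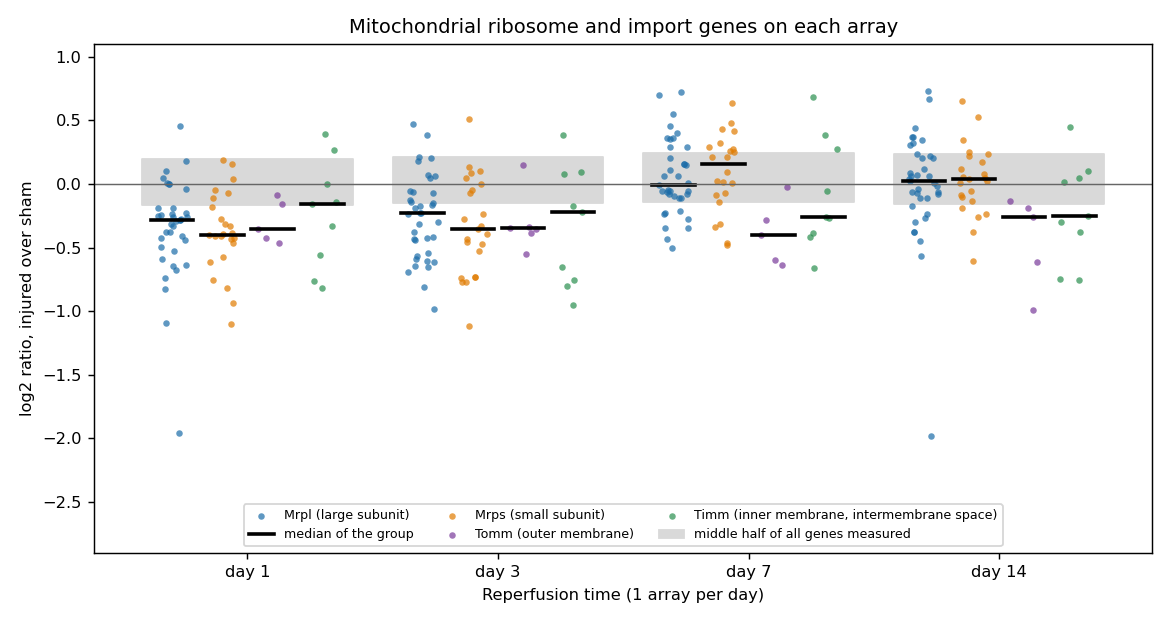
Each point is the log2 ratio of injured over sham muscle of 1 member gene on the array of days 1, 3, 7 or 14, coloured by family, with black bars at family medians and a grey band holding the middle of all genes measured. Ribosome and outer membrane medians sit below the band on days 1 and 3, and the inner membrane median does so on day 3. Outer and inner membrane medians both sit below it on days 7 and 14. On day 7 the small subunit median is 0.15 while that of the outer membrane is -0.40.

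Members were bright probes, with a median brightness at percentile 88.4 to 90.0 of the genes measured, and a ratio can depend on brightness. Each member was therefore set against the 400 other genes nearest to it in brightness on the same array. The median deviation from these was -0.32 on day 1, -0.34 on day 3, -0.03 on day 7 and -0.02 on day 14. The median member stood at percentile 27.5, 26.5, 44.5 and 48.1 of its window on those days. The plain direction on days 1 and 3 depended on the scaling: when each array was centred on its median without loess, the member median was 0.78 and 0.50, above the 0.37 and 0.29 of all genes, while the deviation from genes of like brightness was -0.33 and -0.34. Loess already brings the median ratio near 0 at each brightness, and the window does the same under median centring. The deviation is therefore not a separate check of the scaling. Statements of lower or higher in what follows refer to the loess ratios.

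**Figure D2:**
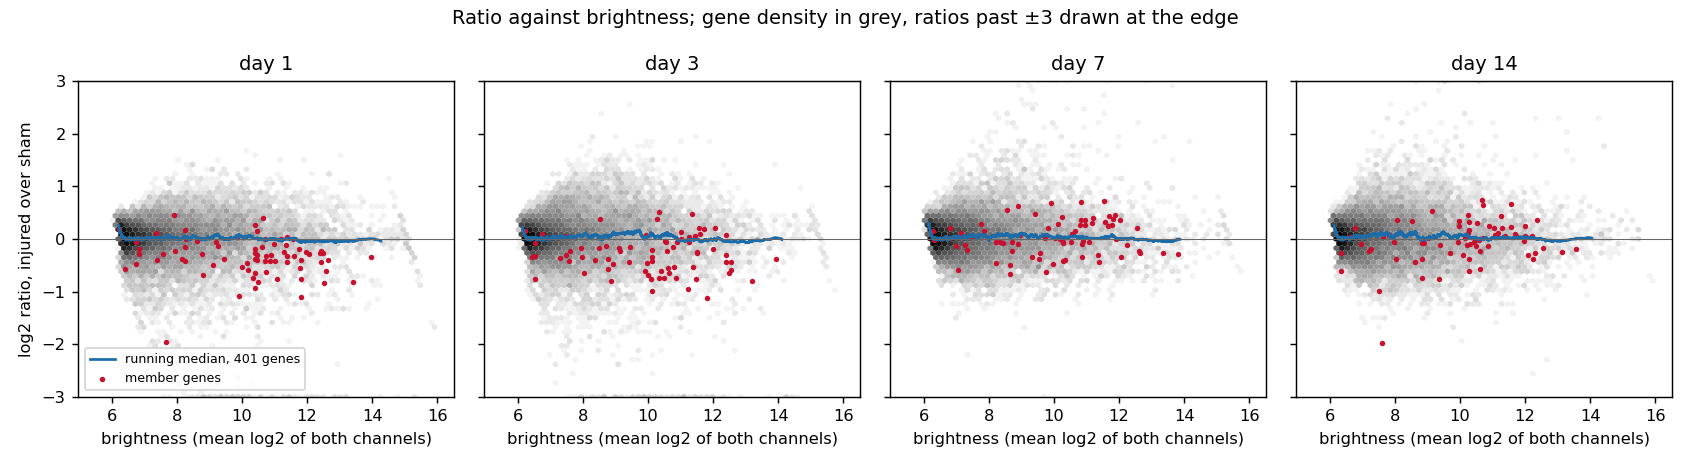
Log2 ratio of injured over sham (vertical) against brightness (horizontal, mean log2 of both channels) on the 4 arrays, with all genes in grey, their running median in blue and member genes in red. The blue line stays near 0, where loess within the array sets it. Most red points lie under it on days 1 and 3, and on days 7 and 14 they lie on both sides of it.

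Few members passed 2-fold. Those at least 2-fold lower numbered 3, 1, 0 and 1 on days 1, 3, 7 and 14, where 4.92%, 3.95%, 1.23% and 1.56% of all genes were. By its brightest probe, no member was at least 2-fold higher on any day, where 1.24%, 2.48%, 3.13% and 3.15% of all genes were. At 1.5-fold, 15, 18, 3 and 6 members were lower (9.39%, 7.97%, 4.70% and 5.77% of all genes), and 0, 0, 4 and 3 were higher (5.14%, 7.73%, 7.46% and 8.17%). The shares of all genes are not matched for brightness, and members were brighter than most genes. Within their windows of like brightness, 4 of 75, 5 of 75, 3 of 73 and 6 of 74 members were in the lowest 10% on days 1, 3, 7 and 14. In the highest 10% there were 0 on each day. The injured level lay below all 4 sham levels of the gene for 43 of 75 members on day 1 (28.1% of all genes), 39 of 75 on day 3 (25.2%), 21 of 73 on day 7 (23.6%) and 23 of 74 on day 14 (27.3%). It lay above all 4 for 8, 11, 23 and 15 members (33.4%, 34.6%, 40.0% and 32.0%).

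Over the 73 genes measured on every array, 54 were below sham on both day 1 and day 3, where 32.2% of all such genes were. Of these, 15 were then above sham on both day 7 and day 14, against 8.89% of all genes. Another 24 were below sham on all 4 days (13.5% of all genes), among them all 5 Tomm genes measured throughout. Of these 5, Tomm34 had no sham spot well above background on days 3, 7 and 14. Injured muscle was red and sham green on every array. A steady offset, below or above sham, therefore cannot be told apart from a dye effect on the gene. The 24 include Mrpl55, whose dimmer probe was above sham on days 1, 3 and 7, with ratios of 0.004, 0.06 and 0.28. Its brightest probe had -0.25, -0.06 and -0.34 on those days. The 4 genes above sham on all 4 days were Mrpl23, Mrpl42, Mrps17 and Timm9 (19.5% of all genes were). Between day 3 and day 7 the ratio was higher on day 7 for 60 of 73 members, against 56.6% of all genes, with a median change of 0.29 for members and 0.04 for all genes. The change was at least 1.5-fold upward for 16 members (10.0% of all genes) and downward for 0 (6.98%). The injured level carried it, with a median change of 0.26, against 0.01 in the sham level. From day 7 to day 14 the median change was -0.05, and 32 of 73 members had a higher ratio on day 14 (46.6% of all genes), 0 by at least 1.5-fold (5.56%), while 1, Mrpl43, was lower by as much (4.83%). Between day 1 and day 3 the ratio was higher on day 3 for 43 of 74 members (51.9% of all genes), with 1 past 1.5-fold upward (7.75%) and 2 past it downward (4.79%).

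**Figure D3:**
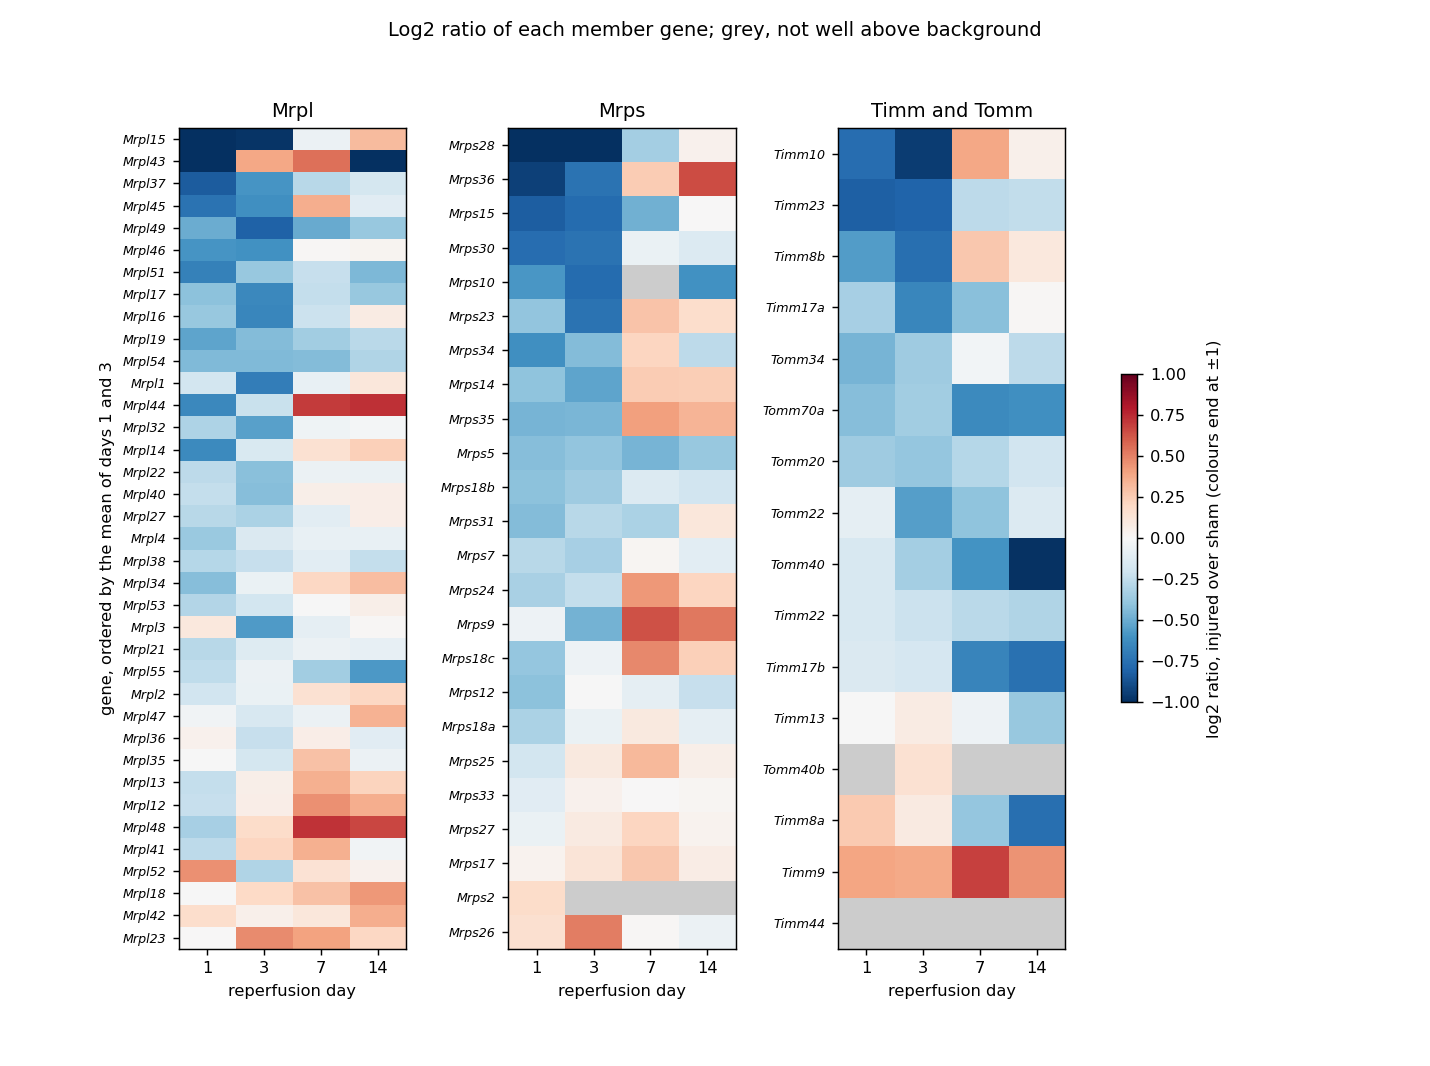
Colour gives the log2 ratio of injured over sham for each of the 77 member genes (rows, in 3 panels by family, ordered by the mean of days 1 and 3) on days 1, 3, 7 and 14 (columns), with grey where neither channel was well above background. Most rows are blue on days 1 and 3, a block of rows turns pale or red on day 7, and Tomm70a, Tomm40 and Timm17b stay blue on days 7 and 14.

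Promoters are shown because many of these genes are known in mammals to be bound by nuclear respiratory factor 1 (NRF1), the ETS factor GABP and YY1. RefSeq gives the 250 bases before and 50 after the gene start on build GRCr8 for 63 of the 77 members. Both strands were searched for the NRF1 palindrome, exact or with 1 free base in its middle, and for CCGGAAG (ETS and GABP), AAGATGGC (YY1) and CACGTG (E-box). CCGGAAG or its complement was in 21 of the 63 (33.3%), against 8.75% of all 33469 promoters in the table and 10.7% of the 21851 of protein-coding genes. AAGATGGC was in 14 (22.2%, against 3.17% and 3.68%), the NRF1 element with 1 free base in 8 (12.7%, against 4.26% and 5.67%) and CACGTG in 8 (12.7%, against 6.42% and 7.02%). The exact NRF1 palindrome was in 4 (6.35%, against 0.852% and 1.08%). Median GC content was 56.3% in member promoters and 55.0% in those of protein-coding genes. A match is a description of the letters, not a site. The 4 printed here hold 2 or 3 matches each and belong to genes that were below sham on days 1 and 3. Not all members with 2 matches were: Mrps26 had ratios of 0.16 and 0.51 on those days, and Mrpl52 had 0.46 on day 1. Capitals mark letters of NRF1, ETS or YY1, and the strand of the gene is read 5′ to 3′.
Timm10: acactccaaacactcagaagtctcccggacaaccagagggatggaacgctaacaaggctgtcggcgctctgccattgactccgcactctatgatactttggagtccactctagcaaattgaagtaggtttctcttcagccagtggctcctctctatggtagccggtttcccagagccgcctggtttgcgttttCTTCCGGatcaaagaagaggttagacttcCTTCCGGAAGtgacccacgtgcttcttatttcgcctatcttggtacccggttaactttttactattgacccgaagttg
Timm23: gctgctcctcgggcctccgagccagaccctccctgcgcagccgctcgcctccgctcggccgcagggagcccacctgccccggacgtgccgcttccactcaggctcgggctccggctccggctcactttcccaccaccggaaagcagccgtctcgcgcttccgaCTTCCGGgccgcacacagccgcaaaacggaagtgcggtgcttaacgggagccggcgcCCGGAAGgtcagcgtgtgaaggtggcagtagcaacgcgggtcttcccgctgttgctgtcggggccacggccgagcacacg
Mrps18b: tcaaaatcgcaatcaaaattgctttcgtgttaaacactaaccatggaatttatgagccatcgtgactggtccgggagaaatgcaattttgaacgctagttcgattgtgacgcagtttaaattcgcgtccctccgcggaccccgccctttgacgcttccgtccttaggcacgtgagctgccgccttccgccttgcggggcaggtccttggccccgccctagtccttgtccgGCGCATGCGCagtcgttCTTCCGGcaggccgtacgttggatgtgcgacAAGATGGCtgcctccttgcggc
Mrpl45: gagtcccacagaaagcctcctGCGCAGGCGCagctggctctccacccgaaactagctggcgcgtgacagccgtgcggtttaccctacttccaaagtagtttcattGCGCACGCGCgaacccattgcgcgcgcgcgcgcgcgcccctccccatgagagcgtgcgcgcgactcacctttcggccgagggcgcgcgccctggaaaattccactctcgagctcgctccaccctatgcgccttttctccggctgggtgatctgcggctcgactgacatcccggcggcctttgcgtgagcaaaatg
Timm10 lies on the + strand of chromosome 3, and its window is chr3:90314889-90315188. It holds CTTCCGG at -57 and the joined run CTTCCGGAAG from -28, a match on each strand that overlap, with a CACGTG at -13 left in lower case (the first base of the gene is 1). Timm23 lies on the - strand, window chr16:7442570-7442869, with matches of ETS at -87 and -30. Mrps18b lies on the + strand, window chr20:2842756-2843055, with all 3 motifs: NRF1 at -20, ETS at -3 and YY1 at 29. It also holds a CACGTG at -83, left in lower case. Mrpl45 lies on the + strand, window chr10:82804789-82805088, with GCGCAGGCGC at -229 and GCGCACGCGC at -145. Members with any of the 3 motifs had median ratios of -0.38, -0.33, 0.01 and -0.04 on days 1, 3, 7 and 14 (32, 33, 31 and 32 measured), and those without had -0.19, -0.19, -0.02 and 0.04 (29, 28, 28 and 28 measured).

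Large subunit genes had a median ratio of -0.28, -0.23, -0.01 and 0.02 on days 1, 3, 7 and 14, and 32, 29, 19 and 17 of 37 were below sham. Mrpl15, a conserved core protein of the subunit, was among the lowest of them early. Its injured level was 9.12, 9.60, 10.49 and 10.50 on days 1, 3, 7 and 14, against sham levels of 10.21, 10.58, 10.55 and 10.18. The ratio was -1.09, -0.98, -0.06 and 0.32, so that injured muscle was 2.13-fold lower on day 1 and 1.98-fold lower on day 3. The day 1 and day 3 injured levels lay below every sham level and the later injured levels lay among them. The probe sits at chr5:14934961-14935020 on rn4, the build of the array files. Under median centring the Mrpl15 ratio was 0.018 on day 1.

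Mrpl43, another large subunit protein, was the only member at least 2-fold lower on both day 1 and day 14. Its injured level was 6.58, 8.64, 9.04 and 6.66 on days 1, 3, 7 and 14, against sham levels of 8.54, 8.26, 8.48 and 8.64. Injured muscle was 3.90-fold lower on day 1 and 3.95-fold lower on day 14, below every sham level, and was above every sham level on days 3 and 7, with ratios of 0.39 and 0.55. The gene has a single probe, at chr1:250072915-250072974 on rn4, and the spot was well above background in both channels of all 4 arrays. No other probe of the gene was on the array to set beside it.

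Mrpl44, whose protein has a ribonuclease III-like fold, and Mrpl48 were lower on day 1 and higher on days 7 and 14. For Mrpl44 the injured level was 9.84, 10.42, 11.41 and 11.12, against sham levels of 10.49, 10.64, 10.70 and 10.39. This gave ratios of -0.65, -0.23, 0.70 and 0.73, where the scanner's own ratio for Mrpl44 on day 7 was -0.11. For Mrpl48 the ratios were -0.33, 0.18, 0.73 and 0.67. Both were above all 4 sham levels on days 7 and 14 and below all 4 on day 1. Mrpl49 went with neither: its injured level was 8.65, 8.41, 8.60 and 8.71, against sham levels of 9.15, 9.22, 9.11 and 9.09, under every sham level on each day. Mrpl51 was likewise below all 4 sham levels on each day, with ratios of -0.68, -0.38, -0.23 and -0.45. Among the other named genes of the subunit, Mrpl37 had -0.83 on day 1 and Mrpl1 had -0.69 on day 3. Mrpl55 had -0.57 on day 14, and -0.27 by its dimmer probe. Mrpl54 (-0.44, -0.44, -0.43 and -0.30) and Mrpl19 (-0.52, -0.43, -0.35 and -0.27) were below sham throughout. At the upper end, Mrpl52 had 0.46 on day 1, Mrpl23 had 0.47 on day 3, Mrpl18 had 0.44 and Mrpl42 had 0.37 on day 14, and Mrpl41 had 0.21 on day 3. The 2 probes of Mrpl18 stood 0.88 apart on day 7, at 0.29 and 1.17. This was the widest gap among members with several probes, and the dimmer Mrpl18 probe was past 2-fold that day, while the brighter one stood for the gene. Mrpl3 was dim in both channels of the day 1 array, at 7.31 in injured muscle and 7.20 in sham, where the other sham levels were 8.99 to 9.15.

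Small subunit genes had the lowest family median on day 1 and the highest on day 7, at -0.40, -0.36, 0.15 and 0.04 over the 4 days. Of those measured, 21 of 24, 18 of 23, 7 of 22 and 9 of 23 were below sham. Mrps28 was the furthest below early. Its injured level was 11.02, 11.21, 12.11 and 12.13 on days 1, 3, 7 and 14, against sham levels of 12.12, 12.33, 12.45 and 12.08. Injured muscle was 2.14-fold lower on day 1 and 2.17-fold lower on day 3, under every sham level, and its later levels lay among the sham levels. Under median centring its ratio was 0.21 on day 1. The probe sits at chr2:94922417-94922476 on rn4.

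Mrps36 is listed in RefSeq as Kgd4, and its protein is now counted with the 2-oxoglutarate dehydrogenase complex rather than the ribosome. Its injured level was 9.68, 10.08, 11.15 and 11.11, against sham levels of 10.61, 10.81, 10.90 and 10.46. The ratio was -0.93, -0.74, 0.26 and 0.65, with injured levels under every sham level on days 1 and 3 and over every one on days 7 and 14. The scanner's own ratio for Mrps36 on day 7 was -0.26. Mrps9, a conserved core protein, had injured levels of 8.96, 8.63, 9.40 and 9.45, against sham levels of 9.01, 9.10, 8.77 and 8.93. Its ratio went up by 1.11 between days 3 and 7, at 0.63 on day 7 and -0.47 on day 3, with the sham level 0.33 lower on day 7. Mrps23 also moved up by over 2-fold between those days, by 1.02, of which 0.57 was in the injured level.

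The remaining small subunit genes differed in course. Mrps15, with ratios of -0.82, -0.77, -0.48 and 0.01, was below sham until day 7. Mrps5 was below sham by about the same amount on each day, at -0.43, -0.40, -0.46 and -0.38, and below all 4 sham levels each time. Mrps34 and Mrps35 were below sham on days 1 and 3 and had ratios of 0.21 and 0.41 on day 7. Ratios on day 7 were 0.43 for Mrps24, 0.48 for Mrps18c and 0.32 for Mrps25. The Mrps18c sham level was low that day, at 9.40, against 9.92 to 10.51 on the other arrays. Against the mean of the 4 sham levels the day 7 ratio of Mrps18c was -0.16. Mrps26 was at its highest on day 3, with a ratio of 0.51, and Mrps17 stayed between 0.04 and 0.27. Mrps10 was near the detection limit: its injured spot was not well above background on days 1, 7 and 14, nor was its sham spot on day 7. Injured muscle was at least 1.49-fold lower on day 1 and at least 1.52-fold lower on day 14, bounds that set the sham level against the level of the injured spot itself, which was above the lowest one well above background. Mrps2 was well above background on day 1 alone, in injured muscle only.

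**Figure D4:**
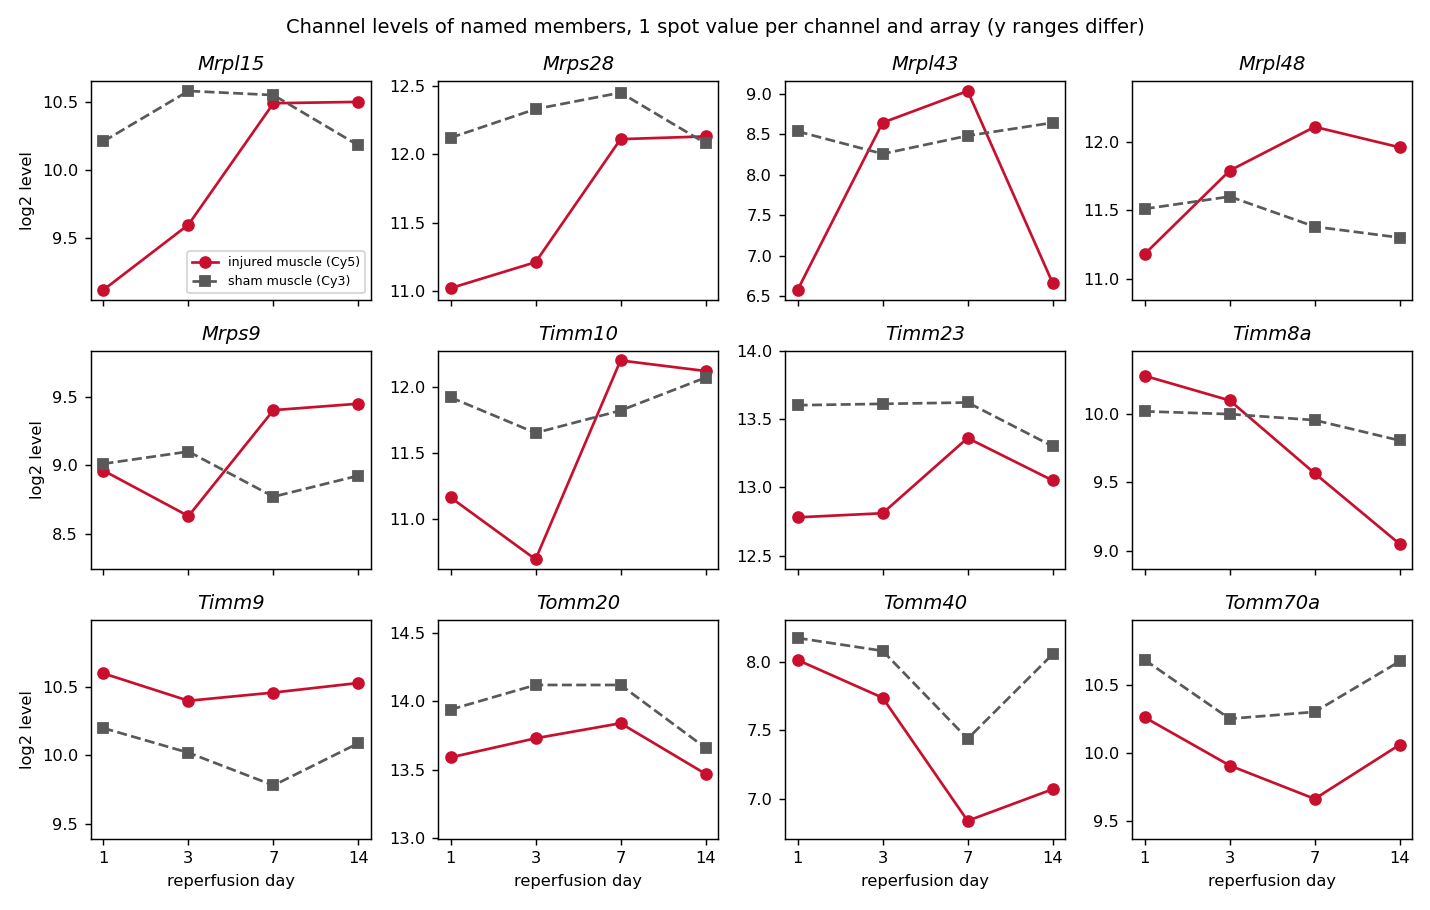
Log2 channel level of 12 member genes on days 1, 3, 7 and 14, with injured muscle in red circles and the sham muscle of the same array in grey squares. Mrpl15, Mrps28 and Timm10 lie under sham on days 1 and 3 and meet it later, Mrpl43 is low on days 1 and 14 only, Timm9 lies above sham on each day, and Tomm40 and Timm8a drift below sham by day 14.

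Outer membrane genes had a median below sham on each day. This median ratio was -0.35, -0.35, -0.40 and -0.26 on days 1, 3, 7 and 14, over 5, 6, 5 and 5 genes. Every Tomm gene well above background in both channels was below sham, and over these 5, 4, 4 and 4 genes the median was -0.35, -0.37, -0.50 and -0.40. Tomm40b was well above background on day 3 alone, in injured muscle only, where it was at least 1.11-fold above sham. Tomm40 encodes the protein-conducting channel of TOM. Its injured level was 8.02, 7.74, 6.84 and 7.07, against sham levels of 8.18, 8.08, 7.44 and 8.06, which gave ratios of -0.16, -0.34, -0.60 and -0.99. On day 14 it was 1.98-fold lower, just inside the 2-fold line, and the day 7 sham level stood apart from the other sham levels. Against the mean of the 4 sham levels the ratio was 0.08, -0.20, -1.10 and -0.87.

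The TOM receptors were lower by less than Tomm40 on day 14, but not on every earlier day. Tomm20, the receptor for presequences, had injured levels of 13.59, 13.73, 13.84 and 13.47, against sham levels of 13.94, 14.12, 14.12 and 13.66, and a ratio between -0.39 and -0.19. Tomm70a, now named Tomm70, the receptor for carrier proteins, had injured levels of 10.26, 9.91, 9.66 and 10.06, against sham levels of 10.68, 10.25, 10.30 and 10.67. Its ratio was -0.43, -0.34, -0.64 and -0.61, and the injured level lay under every sham level from day 3 on. Tomm22, the central receptor that binds the channel, had ratios of -0.09, -0.55, -0.40 and -0.13, also under every sham level from day 3 on. Tomm34, a cytosolic co-chaperone of import, was dim, with levels of 6.23 to 6.46 in injured muscle. Its ratio was -0.47 on day 1, and on days 3, 7 and 14 its sham spot was not well above background, so no fold is given.

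Inner membrane and intermembrane genes diverged from one another. Their median ratio was -0.16, -0.22, -0.26 and -0.25 over 9 genes on each day. Timm23, the core of the translocase for presequence proteins, had injured levels of 12.78, 12.81, 13.36 and 13.05, against sham levels of 13.60, 13.61, 13.62 and 13.30. It was 1.76-fold and 1.74-fold lower on days 1 and 3, and had ratios of -0.26 and -0.25 on days 7 and 14. The 2 forms of its partner differed in timing: Timm17a had ratios of -0.33, -0.65, -0.42 and 0.01, while Timm17b had -0.14, -0.17, -0.66 and -0.75. Timm17b was below all 4 sham levels on each day. Timm22, the core of the translocase for carrier proteins, had ratios between -0.30 and -0.16. Timm44, which tethers the import motor, was not well above background in either channel on any array.

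The small TIM chaperones went in different directions. Timm10 had injured levels of 11.16, 10.69, 12.20 and 12.12, against sham levels of 11.92, 11.65, 11.82 and 12.07. It was 1.69-fold and 1.94-fold lower on days 1 and 3, below every sham level, and above every sham level on days 7 and 14. Its ratio gained 1.34 between day 3 and day 7, the most of the 73 members measured on both days. Timm9, which forms a ring with Timm10, had injured levels of 10.60, 10.40, 10.46 and 10.53, against sham levels of 10.20, 10.02, 9.78 and 10.09, and it was above every sham level on each day. Its ratio was 0.39, 0.38, 0.68 and 0.45. By their brightest probes, the ring partners thus stood on opposite sides of sham on days 1 and 3. A dimmer Timm9 probe had ratios of 0.37, 0.07, 0.23 and 0.29. The injured levels of that probe lay among its own sham levels on days 3 and 7.

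Timm8b followed Timm10, with injured levels of 11.26, 11.04, 12.14 and 11.81, against sham levels of 11.82, 11.80, 11.86 and 11.70. Its ratio gained 1.03 between days 3 and 7. A dimmer Timm8b probe had ratios of -0.23, -0.33, 0.38 and 0.18. Between days 3 and 7 the injured level of that probe went from 10.07 to 9.88, and its sham level from 10.4 to 9.50. Timm8a, named Timm8a1 in RefSeq, went the opposite way from Timm10. Its injured level was 10.28, 10.10, 9.57 and 9.05, against sham levels of 10.02, 10.00, 9.96 and 9.81, above every sham level on days 1 and 3 and below every one on days 7 and 14. Timm13, the partner of Timm8a, had ratios of -0.00, 0.08, -0.05 and -0.38. Both of its channels were dim on day 7, at 8.49 in injured muscle and 8.54 in sham.

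Other mitochondrial gene lists give the scale of these shifts. Oxidative phosphorylation subunits had median ratios of -0.85, -0.71, 0.26 and 0.49 on days 1, 3, 7 and 14, and 25 of 72, 22 of 73, 0 of 73 and 0 of 73 were at least 2-fold lower. Their medians were below those of the members on days 1 and 3 and above them on days 7 and 14; this difference was not tested. Cytosolic ribosomal proteins, the other ribosome of the cell, had medians of 0.02, 0.06, 0.05 and -0.00, and 1, 1, 1 and 0 of them were at least 2-fold lower. Mitochondrial translation factors and tRNA synthetases had medians of -0.24, -0.17, -0.02 and -0.02, with none of 30 or 31 past 2-fold on any day. Mitochondrial ribosome proteins and assembly factors with other names had -0.14, -0.28, -0.09 and -0.05.

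Import, folding and protease genes with other names had medians of -0.21, -0.15, -0.12 and -0.19 over 25 genes. Chchd4, the oxidoreductase that folds the small TIM proteins, had ratios of -0.70, -1.18, -0.81 and -1.01. Clpx, the unfoldase of a matrix protease, had -1.10, -1.09, -0.45 and 0.50. Oma1, a stress-activated protease of the inner membrane, had 0.46, -0.02, 1.25 and 0.98. Among factors of mitochondrial DNA and transcription, whose medians were -0.08, -0.24, -0.14 and -0.13, Tfam had ratios of -0.97, -0.94, -0.33 and -0.03, and Tfb2m had -0.73, -0.95, -0.64 and -0.34. Myc, a growth regulator, had 0.86, 0.45, -0.33 and -1.20.

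**Figure D5:**
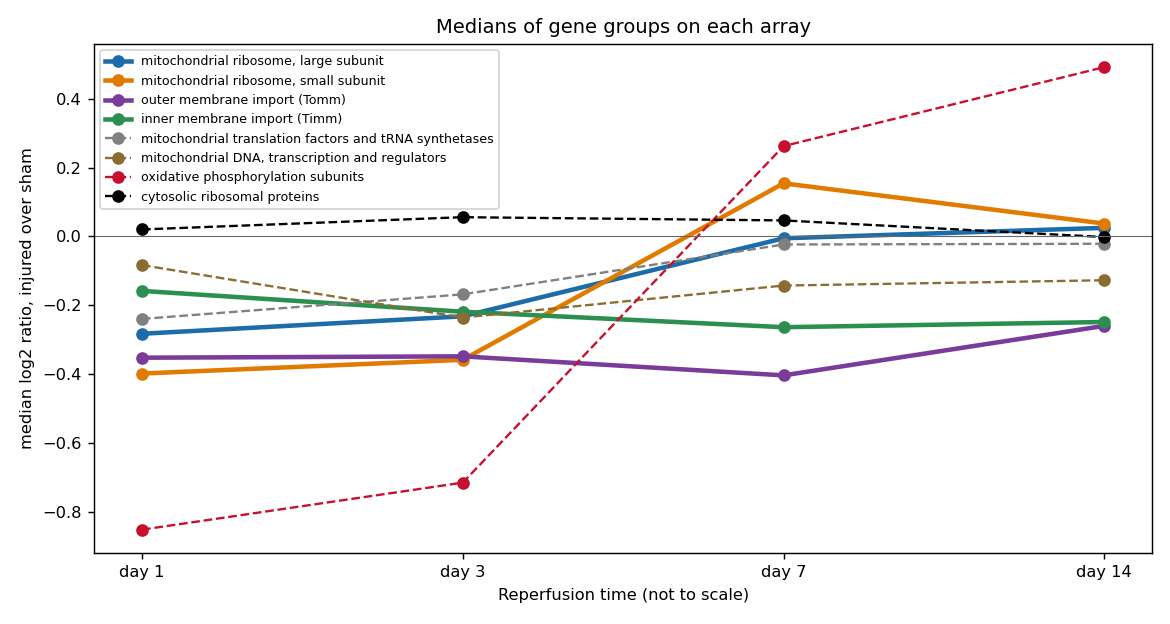
Median log2 ratio of injured over sham on days 1, 3, 7 and 14 (not to scale) for the 4 member families, in thick lines, and for other gene lists, in dashed lines. The ribosome families come back to about 0 by day 7, the Tomm and Timm medians stay between -0.40 and -0.16, and the oxidative phosphorylation median is -0.85, -0.71, 0.26 and 0.49.

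Marker lists of other cell types differed in how far they lay from sham. All 10 muscle fibre markers were at least 2-fold lower on days 1 and 3, with medians of -3.19 and -4.26, and their medians were -0.53 and 0.70 on days 7 and 14. Their sham levels differed between arrays, with a median SD of 0.58, and when the sham levels of all 4 arrays were averaged the medians were -0.94 and 0.01 on those days. Their summed linear level was 58250, 31310, 209200 and 385600 in injured muscle, against 588000, 569700, 374400 and 291000 in sham, so muscle fibre RNA was present in every sham channel. Monocyte and macrophage markers summed to 57750, 46770, 89010 and 55150 in injured muscle, against 33430, 40360, 37610 and 38760 in sham, with 3, 3, 5 and 2 of 10 at least 2-fold higher and 1, 1, 2 and 3 at least 2-fold lower. Their median was 0.46, 0.24, 0.81 and -0.52. Fibroblast and matrix markers summed to 17830, 99260, 144000 and 136900 in injured muscle, against 57490, 37620, 29740 and 27890 in sham, and 0, 5, 5 and 5 of 7 were past 2-fold upward, with 4 past it downward on day 1. Neutrophil markers were at least 2-fold higher for 2 of 6 on day 1 and at least 2-fold lower for 2 of 6 on days 7 and 14, with medians of 0.73, -0.19, -0.20 and -0.37. Dividing-cell markers were past 2-fold upward for 5 of 6 on day 3 and downward for 1 on day 14, with medians of -0.10, 1.73, -0.49 and -0.91. Endothelium markers had medians of 0.02, 0.13, 0.31 and 0.19, with 1 of 6 at least 2-fold higher on days 7 and 14. In whole muscle, fewer cells of a type and less RNA per cell cannot be told apart, and the part of these markers in the members' ratios was not tested.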

How the data were processed

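Two-channel scanner files and a table of the authors' processed values were used for 4 arrays. Spot intensities are mean pixel brightness with a local background, deposited as scanned, and the spots carry flags for being well above background, per the file headers. The scanner's log10 ratio is deposited beside them, background-subtracted, detrended over the slide and dye-normalized, per the file headers. Feature Extraction is version 10.5.1.1 in the file headers and 9.5.3 in the submitters' processing notes. The authors' value table holds log2 ratios of red over green: for 40972 probes with 1 spot they differed from the scanner's log10 ratio, turned into log2, by at most 0.005, and each column's median was 0. It held 0 columns of other samples. Coordinates of probes are on rn4, per the file headers.

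Intensities were corrected with normexp (offset 50) and normalized by loess within each array in limma 3.58.1 (R 4.3.3), with control and outlier spots at weight 0. Levels of single channels were scaled between arrays with Aquantile. The brightest probe stood for a gene. Each member was compared with the 400 nonmember genes nearest in brightness. No test was possible with 1 array per day, so called means at least 2-fold, or 1.5-fold, from sham. Of 41012 probes, 11150 matched RefSeq by accession, 5116 by current symbol and 3422 by an older symbol, and 21324 by none. Of the 93 member probes, 41, 51 and 1 matched in these ways. These steps were checked on simulated arrays with known changes in 200 spots each. Mean recovered log2 changes were 0.861 to 0.868 for 1 and -0.848 to -0.832 for -1. They were 1.73 to 1.74 for 2 and -1.64 to -1.59 for -2, so changes came out smaller than set. As many spots were raised as lowered, unlike on the day 1 array, so loess under an uneven change was not checked. The offset pulls ratios toward 0, most strongly for dim probes.

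Named genes are every Tomm and Timm gene, the 3 highest and 3 lowest Mrpl and Mrps genes on each day, and members past 2-fold. From other mitochondrial lists only a selection is named, not all of the highest and lowest on each day. No oxidative phosphorylation gene is named. A few others are named as examples of a count. Members and lists were chosen with earlier results of these data known. Alternatives were median centring, the scanner's ratio, no background correction, stricter detection, the mean of a gene's probes, the mean of the 4 sham channels, other windows and a 1.5-fold line.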

Additional observations from a re-analysis of the deposited data

Results flagged for a closer look

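In 4 of the 42 named members well above background in all sham channels, 1 sham channel stood apart from the other 3 by Dixon's criterion, which chance meets in about 1 in 20 such groups. The sham level of Mrpl3 was 7.20 on day 1, against 8.99 to 9.15 on the other arrays. The sham level of Tomm40 was 7.44 on day 7, against 8.06 to 8.18. The sham level of Timm23 was 13.3 on day 14, against 13.6 to 13.62, and that of Mrpl1 was 10.54 on day 7, against 10.25 to 10.29.

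Mrpl44 and Mrps36 were at least 1.5-fold below sham on one day and at least 1.5-fold above it on another. Mrpl44 had a log2 ratio of -0.65 on day 1 and 0.73 on day 14, and Mrps36 had -0.93 on day 1 and 0.65 on day 14. With 1 array per day these differences between days were not tested.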

How the results depend on the processing

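Only the number of arrays could set the precision, and no replicate could be left out. No paired analysis was possible because each condition has replicate 1 alone, on 1 array per day. Median centring without loess turned the member median to 0.78 on day 1 and 0.50 on day 3 and moved it to 0.68 on day 7 and 0.64 on day 14, where all genes moved to 0.37, 0.29, 0.27 and 0.27; the cause was not tested. It also gave 0.018 for Mrpl15 and 0.21 for Mrps28 on day 1. It counted 21, 13, 22 and 11 members at least 2-fold higher on days 1, 3, 7 and 14 (21.8%, 17.2%, 11.6% and 12.2% of all genes), and 1 and 0 lower on days 1 and 3 (1.89% and 1.62%). The deviation from genes of like brightness was -0.36 to -0.25 on day 1 and -0.40 to -0.27 on day 3 over all alternatives. It was within 0.07 of 0 on days 7 and 14. The window takes out the trend with brightness under every setting, so this deviation does not check the scaling. The scanner's ratio counted 6, 5, 4 and 4 members at least 2-fold lower (8.54%, 7.42%, 8.05% and 6.42% of all genes) and 1 higher on day 1 (12.0%). The mean of the 4 sham channels counted 5, 2 and 2 lower on days 1, 3 and 7 (4.72%, 3.84% and 3.03%). At 1.5-fold, 15, 18, 3 and 6 were lower, and 4 and 3 were higher on days 7 and 14. Over 16 results, 112 alternative values stayed within the sham spread or 1.5 times a count, 22 moved and 2 turned sign. Ratios of single named members changed more often. Of 177, 169 moved by at least the sham spread under median centring, 2 others were counted as reversed and 6 stayed. More than those 2 changed sign: on day 1, Mrpl37 went from -0.83 to 0.55, Mrps36 from -0.93 to 0.23 and Timm10 from -0.76 to 0.55. With the 4 sham channels averaged 59 moved, and with the scanner's ratio 43 did. On the day 7 array the scanner's ratio varied over the slide, with medians of -1.44 to 0.35 over 25 blocks, where the loess ratio had -0.06 to 0.02. It differed from the loess ratio by more than 0.5 for 11 of 73 members that day. Among these were Timm8b (-0.74, against 0.27) and Timm13 (-2.04, against -0.05). Of the 11, 3 lay in the 2 blocks with the lowest medians. Mrpl44 and Mrps36, above sham by loess that day at 0.70 and 0.26, were below it by the scanner's ratio, at -0.11 and -0.26. Leaving out the 3 members of the 2 lowest blocks, chosen after seeing the data, gave a day 7 median of 0.00.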

Other observations

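Members of the same families carried other names in the array files and so fell outside the rule, on 11 probes. Timm10b, listed as Fxc1, is a small TIM protein bound to the inner membrane carrier translocase, and it had log2 ratios of -0.28, 0.04, 1.09 and 0.80 on days 1, 3, 7 and 14. It was thus at least 2-fold above sham on day 7, where none of the members found by the rule was. Timm21, a subunit of the presequence translocase, had -0.79, -0.46, 0.18 and 0.46. Mrps22, a small subunit protein, had -0.36, -0.65, -0.48 and -0.34, and Timm29, a subunit of the carrier translocase, had -0.32, -0.60, -0.22 and -0.49. The remaining probes, of Mrps11, Mrpl58 and Timm17al1 and of genes the files spell mrpl9, mrpl11 and mrpl24, had ratios of -0.82 to 0.23.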
